A study of Mus musculus with 20 samples.

Results

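Calretinin and the S100 proteins are small cytosolic Ca2+-binding proteins, and this account describes the transcripts of 9 of them in mouse bone marrow-derived macrophages (BMDMs). The genes were Calb2, which encodes calretinin, and S100a1, S100a4, S100a6, S100a8, S100a9, S100a10, S100a11 and S100a13, that is 9 of the 21963 entries of the count table. They were chosen by symbol, with their values in all 5 groups of these libraries already known, so their levels and differences are given as a description and no p-value is printed for any of them. BMDMs were grown from marrow of WT and Mcu-/- mice aged 15 to 25 weeks, by 7 days of culture in medium conditioned by L929 cells. Mcu-/- stands for a conditional deletion in Mcu fl (Cx3cr1-cre) mice, in which a Cre driven by the Cx3cr1 promoter removes the pore-forming subunit of the mitochondrial Ca2+ uniporter from monocytes and macrophages. Whether the WT mice carried the Cre or the floxed alleles is not given in the sources used here. The 5 groups were WT untreated (n = 4), WT zymosan (n = 5), WT zymosan + BAPTA-AM (n = 4), Mcu-/- untreated (n = 4) and Mcu-/- zymosan (n = 3). Zymosan, a yeast cell wall particle seen by TLR2 and dectin-1, was given for 3 h at 2 particles per cell, and BAPTA-AM, a chelator of Ca2+ that enters cells, was used at 10 µM. There was no Mcu-/- group with BAPTA-AM and no group with BAPTA-AM alone.

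S100 proteins carry a pair of EF-hands, helix-loop-helix motifs that bind Ca2+, and most work as dimers that expose a binding surface for partner proteins when Ca2+ rises. Calretinin has more EF-hands, belongs to the calbindin family and is best known as a Ca2+ buffer of neurons and as a marker of mesothelium. S100A8 and S100A9 together form calprotectin, a major cytosolic protein of neutrophils and monocytes that is released in inflammation and acts as an alarmin through TLR4 and RAGE. S100A10 pairs with annexin A2 at the plasma membrane, S100A11 and S100A4 act on the cytoskeleton and on membrane repair, and S100A13 takes part in the unconventional release of interleukin-1α.

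Total counts ran from 14.4 to 24 M reads on genes per library (M, megareads). The labels call the libraries biological replicates and do not say whether each came from another mouse, so the spread between them may be partly technical. Levels are in CPM, the reads of a gene per M reads of its library, with library sizes scaled by TMM, and are given per library or as mean ± SD. Differences are log2 fold changes with their standard error (SE) from 1 edgeR quasi-likelihood fit of all 20 libraries, and a gene is called higher or lower where its Benjamini-Hochberg adjusted p over all 11707 genes tested was under 0.05. All 9 genes passed the filter on low counts. Markers of macrophages, the labelled cell type, were present throughout, at 12430 to 19130 CPM summed over 12 genes in every library. The sum hides shifts of single markers. In Mcu-/- zymosan against WT zymosan 8 of the 12 were called higher and 3 lower, beside 31.8% and 30.3% of all genes. Cd68 was at 1142 to 1175 CPM in Mcu-/- zymosan and 291 to 321 CPM in WT zymosan. Lyz2 was at 3217 to 3280 CPM in Mcu-/- zymosan and 7993 to 8326 CPM in WT zymosan. Summed markers of other cells were at 40.0 to 73.3 CPM for monocytes, 0.782 to 12.0 for dendritic cells, 0.833 to 5.41 for mast cells and eosinophils, 2.12 to 5.48 for lymphocytes and 0.0397 to 0.712 for erythroid cells. Mcu itself was at 6.10 to 9.55 CPM in the 13 WT libraries and at 2.63 to 4.05 CPM in the 7 Mcu-/- libraries, with no overlap, and since all exons are counted this checks the deletion only in part.

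The Mcu-/- untreated library labelled replicate 4 stood apart from the other libraries of its group. Compared with each of replicates 1 to 3, it gave a chi-square averaging 217 to 225 a gene, against 1.60 to 6.53 in the other pairs of replicates. It widened the spread that the fit assigns to every group, with a biological coefficient of variation of 12.4% with it and 3.56% without it. For 10 of the 12 macrophage markers it was nearer to the Mcu-/- zymosan mean than to the mean of replicates 1 to 3. Itgam, the CD11b integrin chain, was at 238 CPM in it, at 734 to 777 CPM in replicates 1 to 3 and at 270 to 284 CPM in Mcu-/- zymosan. The endotoxin co-receptor Cd14 was at 198 CPM in it, against 236 to 242 CPM in replicates 1 to 3 and 1333 to 1424 CPM in Mcu-/- zymosan. Whether this library carries the right label could not be settled from the labels, so every value of the Mcu-/- untreated group that includes it is subject to that doubt. Results below come from all libraries unless said otherwise, and counts of called members and of the EF-hand and partner lists are given with and without it.

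The S100 genes of this set all lie on chromosome 3 of mm10, and Calb2 (ENSMUSG00000003657) lies on chromosome 8 from 110137502 to 110168210. S100a1 (ENSMUSG00000044080, 90511034 to 90514392), S100a13 (ENSMUSG00000042312, 90514435 to 90524581), S100a4 (ENSMUSG00000001020, 90603771 to 90606045), S100a6 (ENSMUSG00000001025, 90612882 to 90624181), S100a8 (ENSMUSG00000056054, 90668978 to 90670035) and S100a9 (ENSMUSG00000056071, 90692632 to 90695721) span 0.185 Mb. S100a11 (ENSMUSG00000027907, 93520488 to 93526287) and S100a10 (ENSMUSG00000041959, 93555080 to 93564643) lie 2.82 Mb further on. S100a4 overlaps the gene model Gm42674, and without strand information in the sources used here reads of the overlap cannot be assigned. RefSeq promoters (GRCm38.p6, the assembly of mm10) were at hand for 7 of the 9 genes, and 4 stretches are printed because their genes moved together or followed zymosan. S100a1 and S100a13 are transcribed away from each other, with 42 bases between their GENCODE M21 starts.
S100a1 to S100a13, chr3:90514393-90514434, plus strand: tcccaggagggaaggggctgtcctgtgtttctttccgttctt
The stretch between S100a1 and S100a13 has a GC content of 54.8% and holds none of the motifs searched. For the calprotectin genes, the 30 bases before the RefSeq start of S100a8 open with a TATA box (TATAAA, in capitals), and the 250 bases before S100a9 hold a C/EBP motif (TTGCNNAA, in capitals).
S100a8, chr3:90669041-90669070, plus strand: TATAAAagcagctgacacttagcctcacat
S100a9, chr3:90695722-90695971, minus strand: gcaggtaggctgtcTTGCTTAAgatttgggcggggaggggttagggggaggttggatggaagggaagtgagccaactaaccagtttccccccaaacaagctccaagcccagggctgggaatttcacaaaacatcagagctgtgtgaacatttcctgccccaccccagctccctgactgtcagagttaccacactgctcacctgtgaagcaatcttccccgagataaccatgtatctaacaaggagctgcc
For S100a11, which rose with zymosan, the stretch before its start holds 2 AP-1 motifs (TGANTCA, in capitals).
S100a11, chr3:93520246-93520487, plus strand: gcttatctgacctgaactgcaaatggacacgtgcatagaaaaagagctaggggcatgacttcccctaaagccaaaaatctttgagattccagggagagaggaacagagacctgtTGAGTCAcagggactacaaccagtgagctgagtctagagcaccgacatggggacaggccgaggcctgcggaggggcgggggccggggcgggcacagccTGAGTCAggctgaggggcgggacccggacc
Searched on both strands in the 250 bases before the start, TATAAA was found in 12.4% of 32851 mouse promoters, TTGCNNAA in 9.56%, TGANTCA in 6.75%, CCAAT in 33.8% and the NF-kB motif in 7.25%. Besides the matches shown, S100a4 had 1 TATAAA and S100a6 had 1 CCAAT, and no member with a promoter had the NF-kB motif. These are matches of letters and say nothing of binding.

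**Figure D1:**
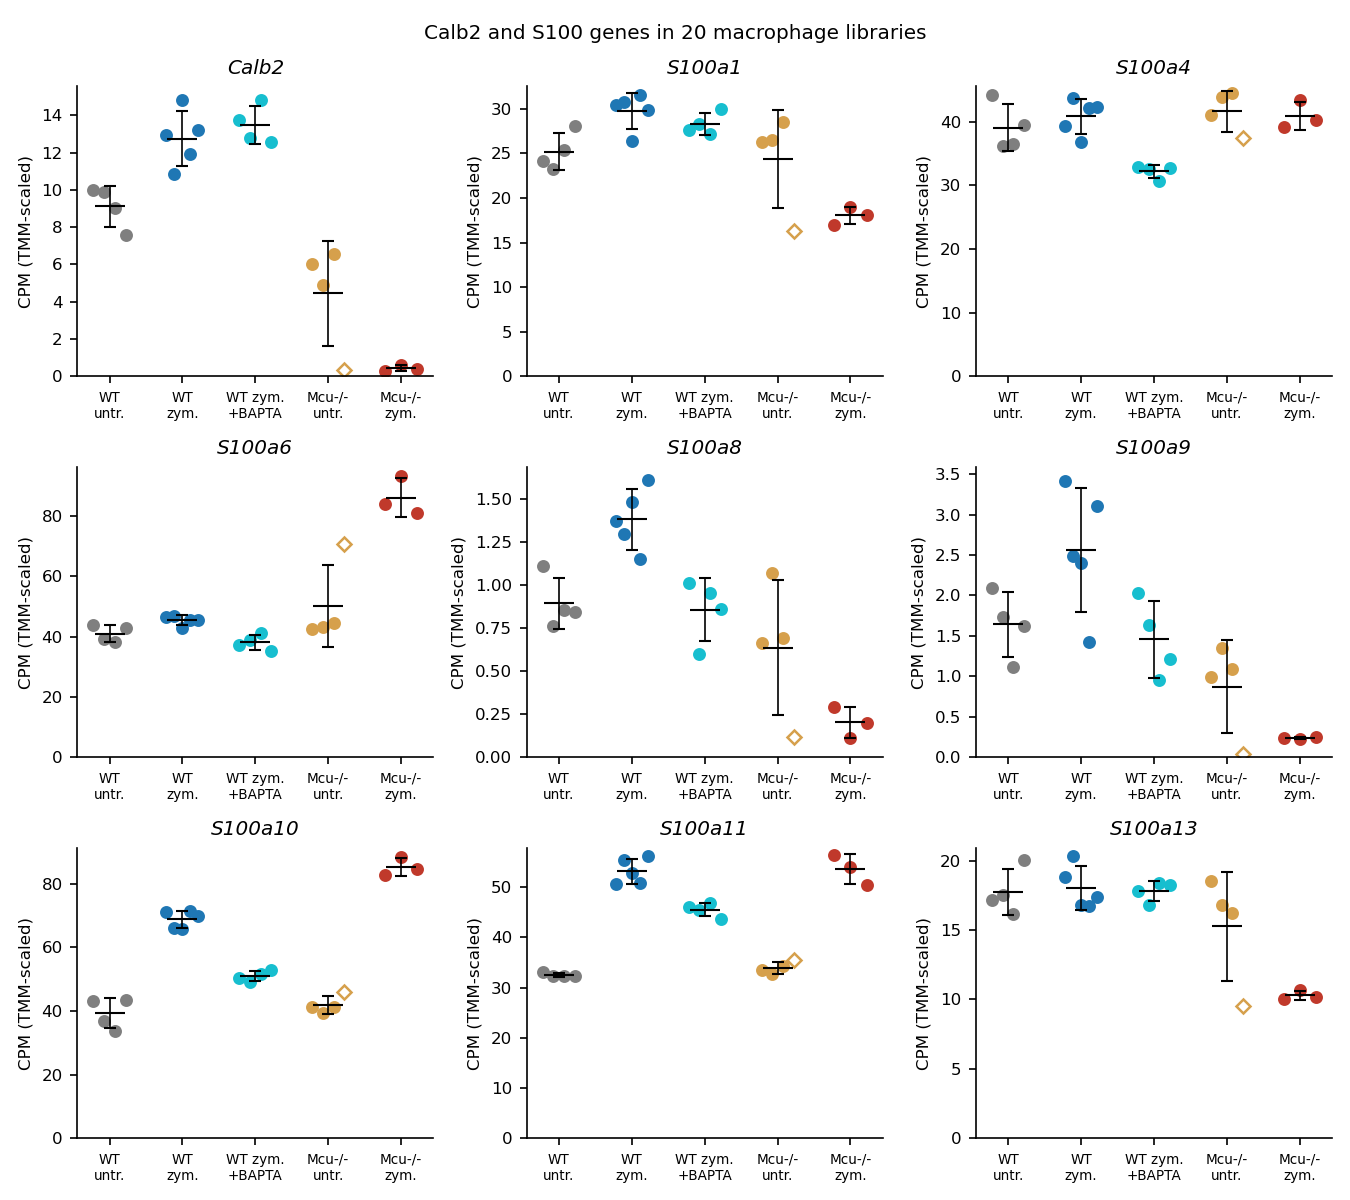
CPM of each gene (y axis, linear from 0) in every library of the 5 groups (x axis); points are libraries, the open diamond is Mcu-/- untreated replicate 4, and bars show the mean and SD of all libraries of a group. Calb2, S100a8, S100a9, S100a1 and S100a13 are low and S100a6 is high in Mcu-/- zymosan and in replicate 4, while S100a10 and S100a11 are high in both zymosan groups.

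Per length of exon, the genes fell into a tier of abundant S100 transcripts and a tier of scarce ones. The length was that of all annotated exons of a gene merged, not of the transcripts expressed. The order among the abundant genes depends on it: in WT untreated S100a6 had 41.0 CPM and S100a1 25.2 CPM, but S100a1 ranked higher per kb. In WT untreated macrophages S100a4 was at 66.8 ± 6.35 CPM per kb and S100a11 at 63.7 ± 0.66 (n = 4), and their libraries overlapped. S100a1 at 36.3 ± 3.05, S100a10 at 32.4 ± 3.93, S100a6 at 30.0 ± 2.00 and S100a13 at 24.8 ± 2.33 CPM per kb followed, and each of these overlapped its neighbour in the order. Calb2 at 5.23 ± 0.64, S100a9 at 3.15 ± 0.77 and S100a8 at 1.29 ± 0.22 CPM per kb came last, without overlap between neighbours. The order changed in Mcu-/- zymosan macrophages (n = 3). There S100a11 led with 105 ± 5.77 CPM per kb, S100a10, S100a4 and S100a6 came next with 70.4 ± 2.40, 70.1 ± 3.81 and 63.0 ± 4.73, neighbours among these 3 overlapping. Calb2 was the lowest of the 9 with 0.251 ± 0.096 CPM per kb and overlapped S100a8 at 0.291 ± 0.131.

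**Figure D2:**
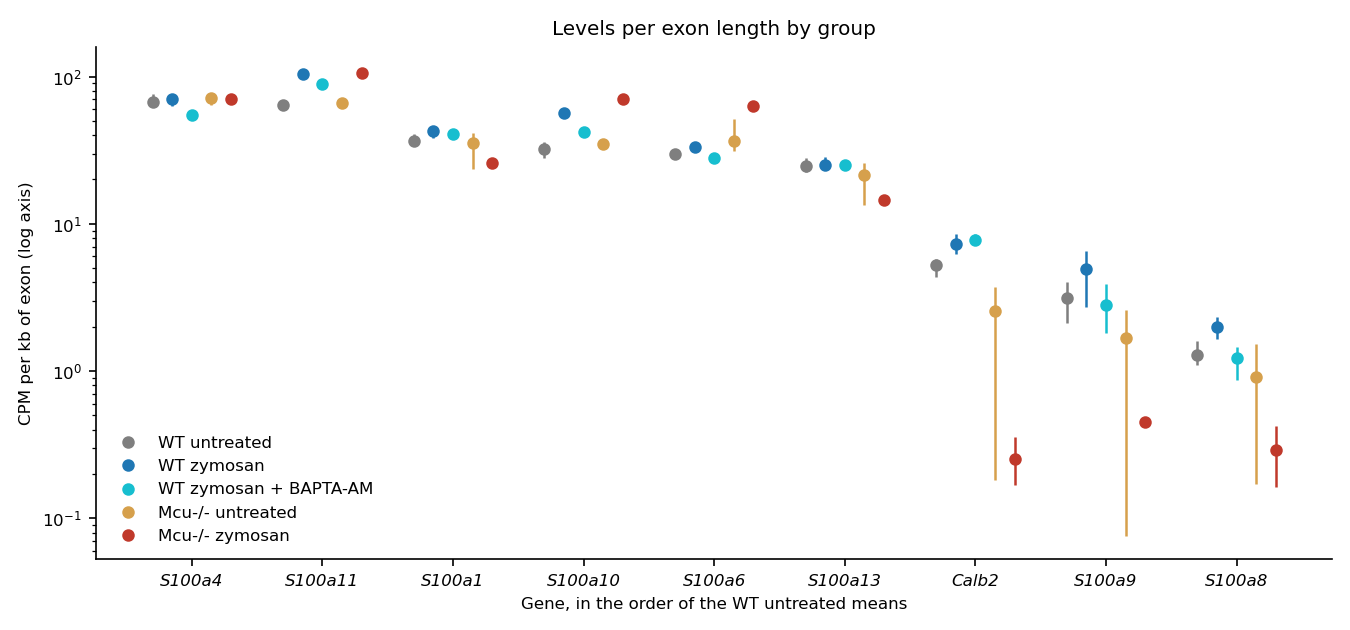
CPM per kb of exon (y axis, log scale) of the 9 genes (x axis, ordered by the WT untreated mean), with points for group means and lines from the lowest to the highest library. The 6 genes on the left lie between 14.4 and 105 in all group means, and the means of Calb2, S100a9 and S100a8 are at most 7.74 CPM per kb.

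Calb2, the calretinin gene, was the member with the largest fold change between the genotypes under zymosan. It was at 9.98, 9.88, 9.03 and 7.57 CPM in WT untreated and at 12.9, 10.9, 14.8, 11.9 and 13.2 CPM in WT zymosan. With BAPTA-AM it was at 13.8, 12.8, 14.8 and 12.6 CPM, within the upper range of WT zymosan. Thus every WT library held between 135 and 291 reads of Calb2, and zymosan libraries lay above untreated ones.

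In Mcu-/- untreated replicates 1 to 3 Calb2 was at 6.03, 4.91 and 6.54 CPM, below all WT untreated libraries, and in replicate 4 it was at 0.317 CPM. The 3 Mcu-/- zymosan libraries had 0.294, 0.622 and 0.398 CPM, or 5, 11 and 8 reads, and none came near a WT library. Against WT zymosan the log2 fold change was −4.84 (SE 0.61), called lower, and −4.84 (SE 0.20) without replicate 4. From summed reads, 24 against 1184, Calb2 was 29.1-fold lower with a 95% interval of 19.5 to 45.6 that covers counting error only. Replicate 4 alone, with 8 reads, was 18.3-fold below replicates 1 to 3 (95% interval 9.22 to 42.7). In bulk RNA, fewer cells that express a gene and less RNA per cell cannot be told apart.

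The zymosan response of Calb2 was fitted as positive in WT and negative in Mcu-/-. In WT the log2 fold change was 0.48 (SE 0.35), not called with all libraries and called higher without replicate 4 at 0.47 (SE 0.09). In Mcu-/- it was −3.33 (SE 0.65), called lower, with overlap between the groups that came from replicate 4, and −3.71 (SE 0.24) with no overlap without that library. The difference of the responses was −3.81 (SE 0.75), and −4.19 (SE 0.26) without replicate 4, called lower in both. Untreated Mcu-/- against WT gave −1.03 (SE 0.38), not called, and −0.66 (SE 0.11), called lower, without replicate 4. BAPTA-AM gave 0.08 (SE 0.35), not called. Because calretinin marks mesothelium, 6 mesothelial markers were read beside it. Msln, the gene of mesothelin, had at most 1 read in any library, and of the 6 only Upk3b, at 0 to 1.71 CPM, passed the filter. Upk3b was at 0.876 to 1.71 CPM in WT zymosan, at 0.170 to 0.199 CPM in Mcu-/- zymosan and at 0 in replicate 4, and its part in the Calb2 result was not tested.

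The calprotectin genes S100a8 and S100a9 moved together, at levels of a few CPM or less. S100a8 was at 1.11, 0.763, 0.856 and 0.841 CPM in WT untreated and at 1.37, 1.29, 1.48, 1.15 and 1.61 CPM in WT zymosan. With BAPTA-AM it was at 1.01, 0.60, 0.953 and 0.860 CPM, overlapping untreated cells and below every WT zymosan library. In Mcu-/- untreated it was at 0.666, 1.07 and 0.694 CPM in replicates 1 to 3 and at 0.119 CPM in replicate 4, and in Mcu-/- zymosan at 0.294, 0.113 and 0.199 CPM. The latter rest on 2 to 5 reads per library.

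S100a9 was at 2.09, 1.74, 1.11 and 1.63 CPM in WT untreated, at 3.42, 2.48, 2.40, 1.42 and 3.11 CPM in WT zymosan and at 2.03, 1.64, 0.953 and 1.21 CPM with BAPTA-AM. These 3 groups overlapped. In Mcu-/- untreated it was at 0.998, 1.35 and 1.10 CPM in replicates 1 to 3 and at 0.0397 CPM, 1 read, in replicate 4. Mcu-/- zymosan libraries had 0.236, 0.226 and 0.249 CPM, below all 13 WT libraries.

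Against WT zymosan, Mcu-/- zymosan libraries were lower in S100a8 by a log2 fold change of −2.74 (SE 0.47) and in S100a9 by −3.40 (SE 0.61), both called, and by the same −2.74 (SE 0.37) and −3.40 (SE 0.37), both called, without replicate 4. From summed reads S100a8 was 6.87-fold lower (11 against 128 reads, 95% counting interval 3.71 to 14.1) and S100a9 10.8-fold lower (13 against 237 reads, 6.17 to 20.5). The WT zymosan response was 0.62 (SE 0.32) for S100a8 and 0.64 (SE 0.39) for S100a9, and BAPTA-AM against WT zymosan gave −0.69 (SE 0.33) and −0.80 (SE 0.41). None of these 4 values was called with all libraries, and all 4 were called without replicate 4. The zymosan response within Mcu-/- was −1.65 (SE 0.51) for S100a8 and −1.87 (SE 0.67) for S100a9, called lower, with replicate 4 inside or below the zymosan range. Without it these were −1.98 (SE 0.42) and −2.25 (SE 0.44), both called. The difference of the responses was −2.27 (SE 0.60) for S100a8 and −2.51 (SE 0.78) for S100a9, and −2.60 (SE 0.48) and −2.88 (SE 0.49) without replicate 4, all called lower. The ratio of S100a9 to S100a8 reads was 1.84 ± 0.46 (n = 5) in WT zymosan and 1.35 ± 0.61 (n = 3) in Mcu-/- zymosan, a difference within their spread.

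Some markers of neutrophils, which hold most calprotectin in the body, were low in the same libraries as S100a8 and S100a9. Of 14 neutrophil markers 4 passed the filter, and the summed level of all 14 was 4.67 to 6.35 CPM in WT untreated, 5.38 to 7.67 in WT zymosan, 4.05 to 5.40 with BAPTA-AM, 2.70 to 6.97 in Mcu-/- untreated and 2.98 to 3.73 in Mcu-/- zymosan. Most of this was Mmp8, which macrophages can express too, and whether the other markers come from macrophages was not tested. Mmp8 was also the only tested marker not called lower in Mcu-/- zymosan than in WT zymosan, so leaving it out widens the contrast. Without Mmp8, a choice made after its level was seen, the sum was 1.88 to 2.96 CPM in WT zymosan, 1.53 to 1.64 in Mcu-/- untreated replicates 1 to 3, 0.0794 in replicate 4 and 0.294 to 0.396 in Mcu-/- zymosan. That sum rested on 5, 7 and 6 reads in the Mcu-/- zymosan libraries and on 2 reads in replicate 4. Of the 4 tested markers Ngp, Chil3 and Mcemp1 were called lower in Mcu-/- zymosan than in WT zymosan, as were 30.3% of all genes. Mmp8 was not called there, at a log2 fold change of −0.44 (SE 0.21). Ly6g, which defines mouse neutrophils, had at most 1 read in any library, and Fcnb had 0. The part of these markers in the S100a8 and S100a9 results was not tested.

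**Figure D3:**
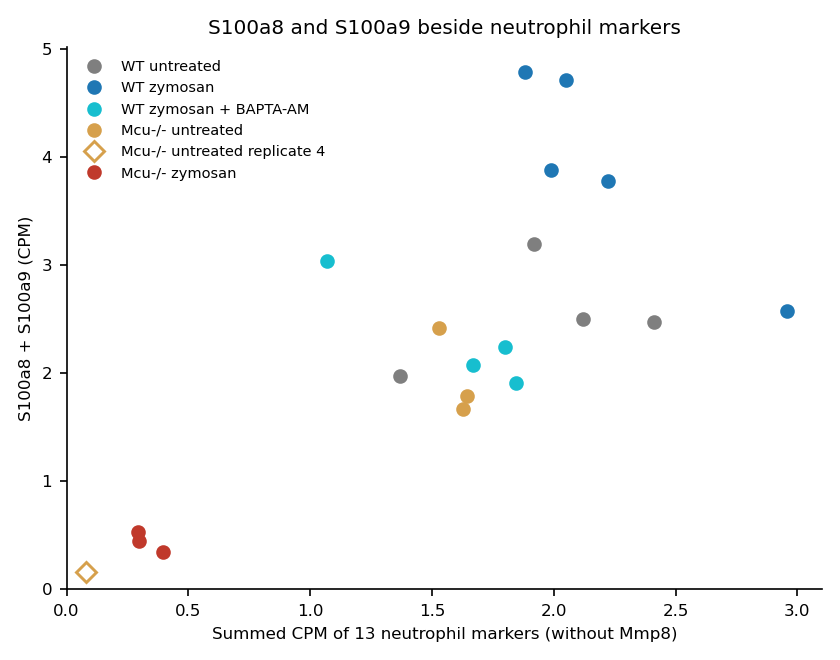
Summed CPM of S100a8 and S100a9 (y axis) against the summed CPM of 13 neutrophil markers without Mmp8 (x axis), both linear from 0, with 1 point per library coloured by group. The 3 Mcu-/- zymosan libraries and Mcu-/- untreated replicate 4 lie near the origin, at 0.159 to 0.530 CPM of S100a8 plus S100a9, and all other libraries lie at 1.66 to 4.79 CPM. The marker sums of the libraries near the origin rest on 2 to 7 reads. Mmp8, which held most of the summed level of the markers, was left out after its level was seen.

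S100a1 and S100a13, the divergent neighbours, were both called lower in Mcu-/- zymosan. S100a1, best known from heart and skeletal muscle, was at 24.1, 23.2, 25.3 and 28.1 CPM in WT untreated and at 30.4, 30.8, 26.4, 31.5 and 29.9 CPM in WT zymosan. With BAPTA-AM it was at 27.6, 28.3, 27.1 and 30.0 CPM. Mcu-/- untreated replicates 1 to 3 had 26.3, 26.5 and 28.5 CPM, among the WT values, and replicate 4 had 16.3 CPM. Mcu-/- zymosan libraries had 17.01, 18.99 and 18.1 CPM, below every WT library.

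S100a13 was at 17.1, 17.6, 16.2 and 20.1 CPM in WT untreated, at 18.9, 20.4, 16.8, 16.7 and 17.4 CPM in WT zymosan and at 17.8, 16.8, 18.4 and 18.3 CPM with BAPTA-AM. The 3 WT groups lay over each other. In Mcu-/- untreated it was at 18.5, 16.8 and 16.3 CPM in replicates 1 to 3 and at 9.56 CPM in replicate 4, and in Mcu-/- zymosan at 10.0, 10.7 and 10.2 CPM.

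Against WT zymosan the log2 fold change in Mcu-/- zymosan was −0.72 (SE 0.13) for S100a1 and −0.81 (SE 0.15) for S100a13, both called lower without overlap, and both also called without replicate 4. The response to zymosan in WT was 0.24 (SE 0.11) for S100a1, not called with all libraries and called higher without replicate 4, and 0.03 (SE 0.13) for S100a13, not called with or without it. Within Mcu-/- the response was −0.44 (SE 0.13) and −0.57 (SE 0.15), called lower, and −0.58 and −0.74 without replicate 4. The difference of the responses was −0.68 (SE 0.18) for S100a1 and −0.60 (SE 0.20) for S100a13, both called lower, and for S100a1 it was −0.83 (SE 0.09), called, without replicate 4. For S100a13 that call was lost when any of 7 libraries was left out in turn, with values from −0.49 to −0.59, and without replicate 4 the value was −0.77 (SE 0.11) and called. With all libraries BAPTA-AM moved neither by more than its SE. Without replicate 4 it gave −0.07 (SE 0.06) for S100a1, and neither gene was called in either fit.

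S100a6, the gene of calcyclin, was higher in Mcu-/- zymosan than in Mcu-/- untreated by about 0.78 on the log2 scale. The fitted response in WT was 0.15 (SE 0.12), not called with all libraries and called higher without replicate 4. Untreated replicate 4 lay nearer to the Mcu-/- zymosan mean than to replicates 1 to 3. How much of the Mcu-/- difference is a response to zymosan was not tested. It was at 43.8, 39.2, 38.2 and 42.9 CPM in WT untreated, at 46.6, 46.9, 42.8, 45.6 and 45.6 CPM in WT zymosan and at 37.4, 38.9, 41.2 and 35.3 CPM with BAPTA-AM. Mcu-/- untreated replicates 1 to 3 had 42.4, 43.3 and 44.4 CPM and replicate 4 had 70.7 CPM. Mcu-/- zymosan libraries had 84.2, 93.4 and 81.0 CPM, above every other library. The log2 fold change against WT zymosan was 0.92 (SE 0.12), and 0.92 (SE 0.05) without replicate 4, called higher in both, and that against Mcu-/- untreated was 0.78 (SE 0.13), or 0.99 (SE 0.06) without replicate 4. The difference of the zymosan responses was 0.63 (SE 0.17), and 0.84 (SE 0.07) without replicate 4, called higher in both. BAPTA-AM gave −0.25 (SE 0.12), not called with all libraries and called lower without replicate 4.

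S100a6 is also abundant in fibroblasts, and the level of stromal markers was read beside it. Of 9 stromal markers 6 passed the filter, and in Mcu-/- zymosan against WT zymosan 5 were called higher and 1, Pecam1, lower. Of all genes tested 31.8% were called higher and 30.3% lower there. The sum of 9 stromal markers was 47.1 to 51.5 CPM in WT zymosan and 66.9 to 77.4 CPM in Mcu-/- zymosan. Most of it in WT was Pecam1, which macrophages express. Pecam1 went the other way, from 40.1 to 43.8 CPM in WT zymosan to 14.2 to 16.3 CPM in Mcu-/- zymosan, and was at 17.3 CPM in replicate 4 and 48.9 to 51.2 CPM in replicates 1 to 3. Without Pecam1, again a choice made after its level was seen, the sum was 6.27 to 8.77 CPM in WT zymosan, 2.63 to 4.94 in Mcu-/- untreated replicates 1 to 3, 35.1 in replicate 4 and 52.7 to 61.1 in Mcu-/- zymosan. Col1a1, a fibrillar collagen chain, was at 1.81 to 2.50 CPM in WT zymosan, 18.3 to 25.6 CPM in Mcu-/- zymosan and 13.01 CPM in replicate 4. Of the fibroblast markers that did not pass the filter, Lum was at 0 in every Mcu-/- library and Pdgfra had at most 5 reads in any WT zymosan or Mcu-/- library. The part of stromal transcripts in the S100a6 result was not tested.

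S100a4, the gene of metastasin, had overlapping libraries in both genotypes with and without zymosan. It was at 44.1, 36.1, 36.4 and 39.4 CPM in WT untreated, at 39.3, 43.7, 36.8, 42.2 and 42.2 CPM in WT zymosan, at 41.0, 43.8, 44.4 and 37.4 CPM in Mcu-/- untreated and at 39.1, 43.4 and 40.3 CPM in Mcu-/- zymosan. These 4 groups overlapped, and the log2 fold change of Mcu-/- zymosan against WT zymosan was 0.00 (SE 0.07), not called with or without replicate 4. With BAPTA-AM S100a4 was at 32.9, 32.5, 30.7 and 32.8 CPM, below every other library. The difference from WT zymosan was −0.34 (SE 0.07), called lower with and without replicate 4.

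S100a10 and S100a11, which lie side by side on chromosome 3, rose with zymosan in both genotypes and were lower with BAPTA-AM. S100a10 was at 43.1, 36.9, 33.8 and 43.5 CPM in WT untreated and at 71.0, 66.1, 65.7, 71.5 and 69.9 CPM in WT zymosan. With BAPTA-AM it was at 50.3, 49.2, 51.6 and 52.8 CPM, between these groups and overlapping neither. Mcu-/- untreated libraries had 41.3, 39.5, 41.3 and 46.0 CPM, the last being replicate 4, and Mcu-/- zymosan libraries had 82.8, 88.5 and 84.5 CPM, the highest of all. The response was 0.81 (SE 0.07) in WT and 1.02 (SE 0.07) in Mcu-/-, both called higher. Their difference was 0.21 (SE 0.10), not called, and 0.26 (SE 0.08), called higher, without replicate 4. Against WT zymosan, BAPTA-AM gave −0.43 (SE 0.06), called lower, and Mcu-/- zymosan gave 0.31 (SE 0.07), called higher. These 2 calls and those of both responses held without replicate 4, with values of −0.43, 0.31, 0.81 and 1.07.

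S100a11 was at 33.0, 32.3, 32.4 and 32.4 CPM in WT untreated and at 50.6, 55.3, 52.7, 50.8 and 56.2 CPM in WT zymosan. With BAPTA-AM it was at 46.1, 45.4, 46.8 and 43.7 CPM, again between these groups. Mcu-/- untreated libraries had 33.4, 32.6, 34.4 and 35.4 CPM and Mcu-/- zymosan libraries 56.3, 54.0 and 50.5 CPM. The response was 0.71 (SE 0.04) in WT and 0.66 (SE 0.05) in Mcu-/-, and the difference of the responses was −0.05 (SE 0.06). BAPTA-AM against WT zymosan gave −0.22 (SE 0.04), called lower. Mcu-/- zymosan against WT zymosan gave 0.01 (SE 0.05), not called, with overlapping libraries. Without replicate 4 these 5 values were 0.71, 0.68, −0.03, −0.23 and 0.01, with the same calls. For this pair of genes replicate 4 was nearer to the other untreated Mcu-/- libraries than to Mcu-/- zymosan.

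**Figure D4:**
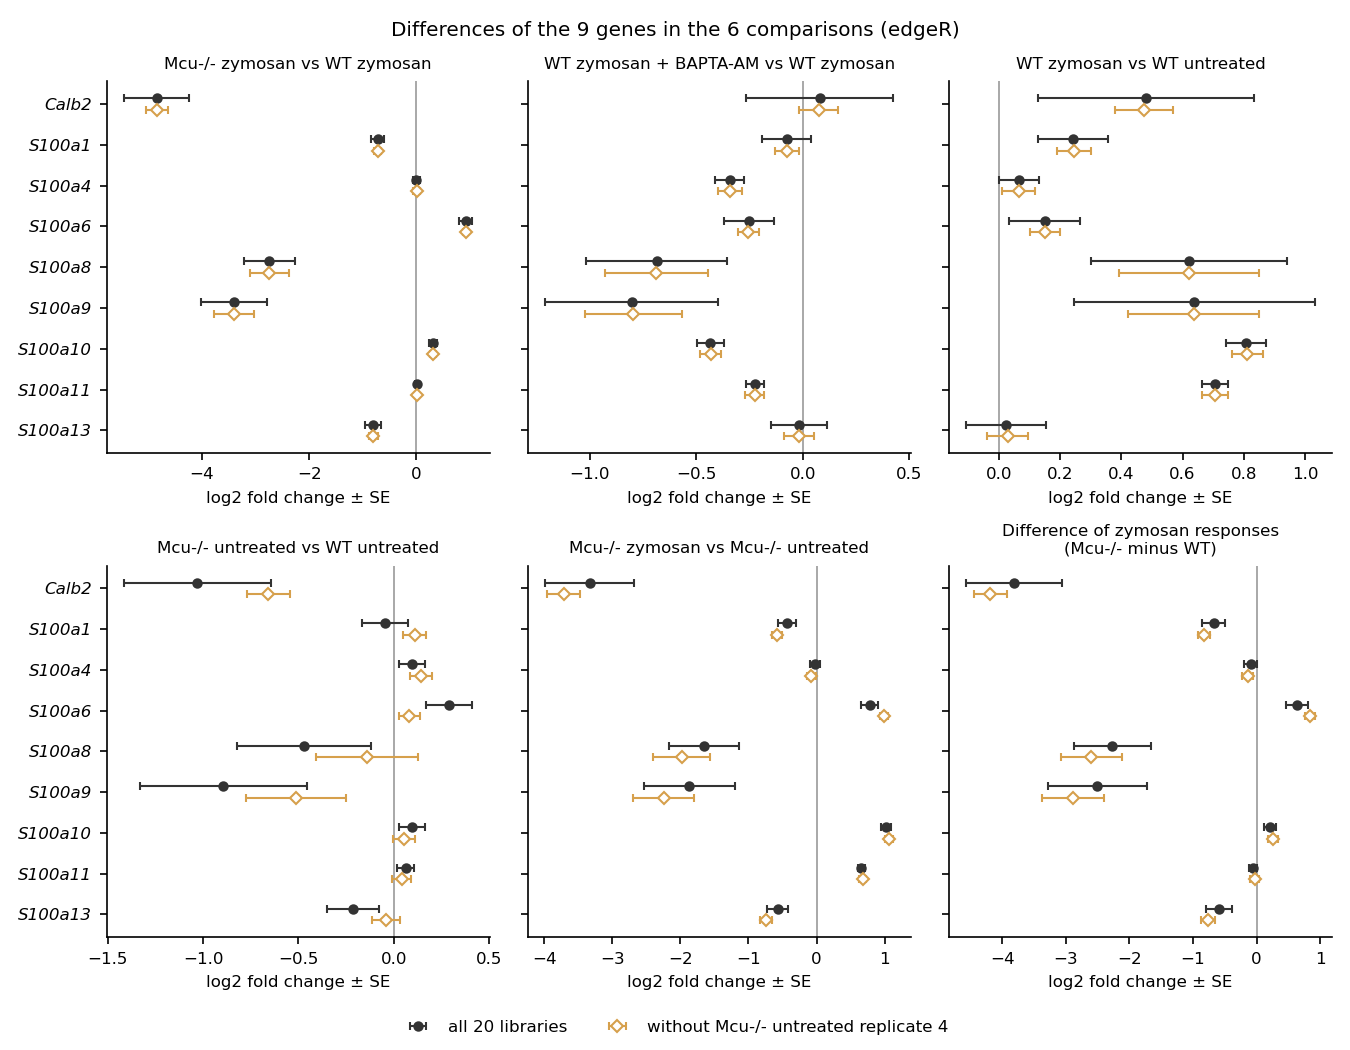
log2 fold change ± SE (x axis) of each gene (y axis) in the 6 comparisons, with filled points for the fit of all 20 libraries and open diamonds for the fit without Mcu-/- untreated replicate 4; the x axes differ between panels. Leaving out replicate 4 shortens most error bars and shifts the values only in the comparisons that use the Mcu-/- untreated group.

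Counted by comparison, 2 of the 9 genes were called higher and 5 lower in Mcu-/- zymosan than in WT zymosan. Over all genes tested 31.8% were higher and 30.3% lower, and without replicate 4 the member counts were the same beside 36.4% and 33.7%. The libraries did not overlap for 7 of 9 members, as for 64.0% of all genes. With BAPTA-AM 0 members were higher and 3 lower, beside 6.43% and 6.33% of all genes, and without replicate 4 these were 0 and 6, beside 15.3% and 16.5%. Here 5 of 9 members did not overlap, as for 24.3% of all genes. In WT with zymosan 2 members were higher and 0 lower, beside 32.4% and 36.8%, and without replicate 4 7 were higher and 0 lower, beside 37.2% and 41.3%. Here 4 of 9 did not overlap, as for 69.5% of all genes. In Mcu-/- with zymosan 3 were higher and 5 lower with and without replicate 4, beside 34.3% and 39.4% of all genes with it and 39.2% and 42.4% without it. In the difference of the responses 1 was higher and 5 lower, beside 15.2% and 20%, and 2 higher and 5 lower without replicate 4, beside 31.0% and 29.3%. The comparisons share the WT zymosan libraries or other groups, and the counts are descriptions of chosen genes.

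Without zymosan, edgeR called 0 of the 9 members between Mcu-/- and WT, and DESeq2 called 0. Under an unadjusted p of 0.05 were 2 members, given as a count only, without the share of all genes under it. Of all genes 0.128% were called higher and 0.222% lower. Without replicate 4 Calb2 alone was called lower, beside 1.53% of all genes higher and 1.83% lower.

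Replicate 4 of Mcu-/- untreated lay outside replicates 1 to 3 for all 9 members, below them for 6 and above them for 3, as it did for 87.1% of the 11707 genes tested. For 7 members it was nearer to the Mcu-/- zymosan mean than to the mean of replicates 1 to 3 on the log2 scale, as for 46.3% of all genes, and S100a10 and S100a11 were the other 2. It was within the Mcu-/- zymosan range for Calb2 and S100a8. S100a1 was at 0.601 times and S100a13 at 0.557 times the mean of replicates 1 to 3, and S100a6 at 1.63 times. S100a10 and S100a11, which rose with zymosan in both genotypes, were at 1.13 and 1.06 times that mean in it. What sets replicate 4 apart was not tested. For the 7 members nearer to Mcu-/- zymosan, whether the difference fitted as a zymosan response in Mcu-/- is due to zymosan was not tested either.

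**Figure D5:**
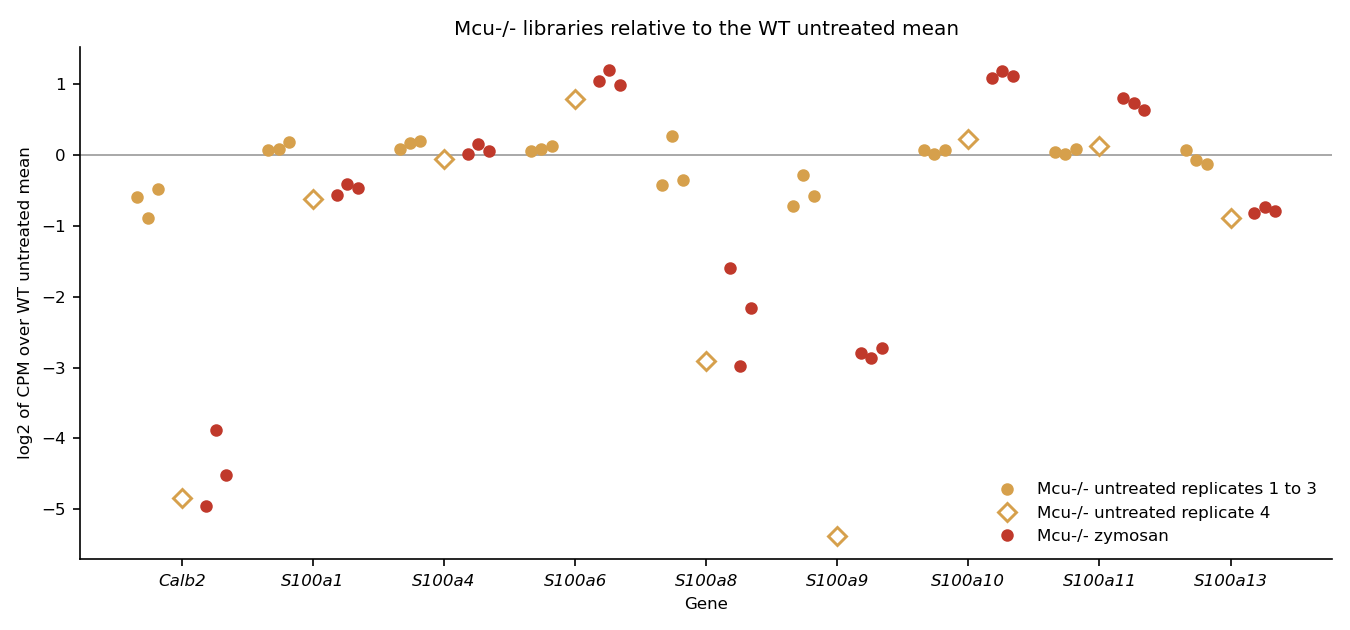
log2 ratio of CPM to the WT untreated mean (y axis) in each Mcu-/- library for the 9 genes (x axis); filled points are Mcu-/- untreated replicates 1 to 3 and Mcu-/- zymosan, open diamonds are Mcu-/- untreated replicate 4. The diamond lies with the zymosan libraries for Calb2, S100a1, S100a8 and S100a13, nearer to them for S100a6 and S100a9, and with replicates 1 to 3 for S100a10 and S100a11.

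Over the 20 libraries the members formed groups by Pearson correlation of log2 CPM, given as a description since the points share libraries, groups and replicate 4. S100a8 and S100a9 had r = 0.94, S100a10 and S100a11 r = 0.92, Calb2 and S100a13 r = 0.94, and S100a1 and S100a13 r = 0.92. S100a6 ran against Calb2 with r = −0.92. Without replicate 4 these were 0.93, 0.92, 0.93, 0.89 and −0.93. The highest r of S100a4 was 0.37, with S100a6, and 0.41 without replicate 4. Among 8915 genes that averaged 5 CPM or more, those most like Calb2 were Coro1b, Prkcb and Tmem176b (r = 0.989 to 0.991). Those most like S100a13 were Aldh16a1, Ndufc2 and Diaph3 (0.970 to 0.974), and those most like S100a1 were Capza1, Rpl10a and Rab4b (0.962 to 0.965). S100a6 was most like Ecm1, Cux1 and Ifnar2 (0.976 to 0.979). S100a8 was most like St3gal4, Klra2 and Ptp4a2 (0.950 to 0.952) and S100a9 most like Cep85, Eif4g3 and Aldh1l2 (0.952 to 0.959). S100a10 was most like Ifrd1, Lbh and Dse (0.970 to 0.973) and S100a11 most like Ccl9, Mcl1 and Cul3 (0.984 to 0.985). For S100a4 the nearest were Ints6, Polr1e and Casp8 (0.734 to 0.798).

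Of 10 other S100 genes that were listed, 9 were analysed here and 0 passed the filter. S100a2, S100a5 and S100z had 0 reads in all libraries, S100a3 at most 3, S100a7a, S100a14 and S100g at most 2, and S100a16 and S100b at most 9 in any library. The highest count of S100a16 was in Mcu-/- zymosan and that of S100b in Mcu-/- untreated. S100pbp, which encodes a protein that binds S100P and is no S100 protein itself, was tested with this list. It was at 15.8 ± 1.17 CPM (n = 5) in WT zymosan and 10.45 ± 0.77 CPM (n = 3) in Mcu-/- zymosan, a log2 fold change of −0.60 (SE 0.08, adjusted p by edgeR = 6.47e-06).

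Other EF-hand proteins were read from a list of 54, of which 40 were tested, and in Mcu-/- zymosan against WT zymosan 19 were called higher and 13 lower, with a median log2 fold change of 0.25 beside 0.02 over all genes. Over all genes tested 31.8% were higher and 30.3% lower, and without replicate 4 the list counts were 20 and 14. Sparc, a secreted Ca2+-binding matrix protein, was at 16.5 ± 3.54 CPM (n = 3) against 1.68 ± 0.65 (n = 5), a log2 fold change of 3.29 (SE 0.65, adjusted p by edgeR = 0.00028). Sparc was at 11.3 CPM in Mcu-/- untreated replicate 4 and at 0.555 to 0.960 CPM in replicates 1 to 3. Aif1, the macrophage actin-binding protein IBA1, fell by 1.21 on the log2 scale (SE 0.20, adjusted p by edgeR = 4.49e-05), and Pls3, an actin-bundling plastin, rose by 1.02 (SE 0.22, adjusted p by edgeR = 0.000687). In WT with zymosan 14 were higher and 7 lower, and 17 and 10 without replicate 4, beside 32.4% and 36.8% of all genes with it. The list was led by Rcn1, a reticulocalbin of the endoplasmic reticulum, at 2.06 (SE 0.09, adjusted p by edgeR = 1.5e-13). Swap70, which links phosphoinositides to actin, followed at 1.92 (SE 0.05, adjusted p by edgeR = 5.92e-17) and the penta-EF-hand protein grancalcin, Gca, at 1.56 (SE 0.07, adjusted p by edgeR = 3.15e-13).

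With BAPTA-AM 1 EF-hand gene was called higher, the mitochondrial GTPase gene Rhot1 at 0.18 (SE 0.05, adjusted p by edgeR = 0.0122, named after its value was seen), and 3 were called lower. These were Ehd4 at −0.37 (SE 0.07, adjusted p by edgeR = 0.000991), the α-actinin gene Actn1 at −0.31 (SE 0.04, adjusted p by edgeR = 0.000102) and Swap70 at −0.18 (SE 0.05, adjusted p by edgeR = 0.0147). Of all genes 6.43% were higher and 6.33% lower, and without replicate 4 the list counts were 2 and 10, beside 15.3% and 16.5%. In Mcu-/- with zymosan 18 were higher and 12 lower, beside 34.3% and 39.4% of all genes, and 20 and 14 without replicate 4. There Gca rose by 2.57 (SE 0.08, adjusted p by edgeR = 8.32e-16) and Swap70 by 2.48 (SE 0.06, adjusted p by edgeR = 6.99e-18). Sparc rose by 2.30 there (SE 0.64, adjusted p by edgeR = 0.00337), and by 4.4 without replicate 4. In the difference of the zymosan responses 10 were higher and 6 lower, beside 15.2% and 20% of all genes, and 20 and 10 without replicate 4, beside 31.0% and 29.3%. Without zymosan 0 of the 72 listed genes tested, partners and S100pbp included, were called by edgeR between the genotypes, 16 had an unadjusted p under 0.05, and DESeq2 called 0. The share of all genes under that unadjusted p is not given here, so the 16 are a count only. Without replicate 4 edgeR called 2 higher and 4 lower, beside 1.53% and 1.83% of all genes.

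Among partners and receptors of S100 proteins, 31 of 34 were tested. In WT with zymosan 21 were called higher and 6 lower, with a median log2 fold change of 0.42 beside −0.04 over all genes. Of all genes 32.4% were higher and 36.8% lower, and without replicate 4 the list counts were 22 and 7. In Mcu-/- 18 were higher and 6 lower, beside 34.3% and 39.4% of all genes, and 17 and 9 without replicate 4. Cybb, the catalytic subunit of the phagocyte NADPH oxidase to which calprotectin delivers arachidonic acid, rose from 449 ± 5.79 (n = 4) to 1926 ± 26.2 CPM (n = 5) in WT (log2 fold change 2.10, SE 0.08, adjusted p by edgeR = 2.89e-14). Il1a, whose product leaves cells with S100A13, was at 0.0741 ± 0.0719 CPM in WT untreated, 23.7 ± 1.68 in WT zymosan, 4.89 ± 0.19 with BAPTA-AM and 104 ± 6.35 in Mcu-/- zymosan. In Mcu-/- Cybb rose by 2.15 with zymosan (SE 0.09, adjusted p by edgeR = 9.12e-14), and Arrb1, the gene of β-arrestin 1, fell by 2.09 (SE 0.24, adjusted p by edgeR = 2.72e-07). In WT Anxa7, an annexin, rose by 1.72 (SE 0.05, adjusted p by edgeR = 1.58e-16). The difference of Il1a between genotypes under zymosan was 2.13 (SE 0.11, adjusted p by edgeR = 4.71e-11) and that with BAPTA-AM −2.28 (SE 0.12, adjusted p by edgeR = 3.67e-09).

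Anxa2, the partner of S100A10, was at 502 ± 8.02 CPM with BAPTA-AM (n = 4) and 546 ± 11.1 CPM in WT zymosan (n = 5), a log2 fold change of −0.12 (SE 0.03, adjusted p by edgeR = 0.0227), and Il1a and Anxa2 were the 2 partners called lower. With BAPTA-AM 0 partners were called higher, and of all genes 6.43% were higher and 6.33% lower. Without replicate 4 the counts were 2 higher and 9 lower, beside 15.3% and 16.5% of all genes. In Mcu-/- zymosan against WT zymosan 11 partners were higher and 8 lower, beside 31.8% and 30.3% of all genes, and 14 and 10 without replicate 4. Alcam, an adhesion molecule, rose by 1.48 (SE 0.27, adjusted p by edgeR = 0.000154) and Arrb1 fell by 1.51 (SE 0.23, adjusted p by edgeR = 2.07e-05). In the difference of the responses 2 partners were higher and 8 lower, beside 15.2% and 20% of all genes, and 10 and 9 without replicate 4.

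Genes beside the members on the chromosome were read in the same comparison. Within 200 kb of the block from S100a1 to S100a9, 6 other genes were tested, and in Mcu-/- zymosan against WT zymosan 1 was called higher and 1 lower. These counts stand beside 31.8% and 30.3% of all genes. Chtop, the tested gene nearest to S100a1 outside the set, had a log2 fold change of −0.07 there, against −0.72 for S100a1. Within 200 kb of Calb2, 2 genes were tested, Phlpp2 at −0.04 and Cmtr2 at −0.20, and neither was called, against −4.84 for Calb2. No other gene within 200 kb of S100a11 and S100a10 was tested.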

How the data were processed

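RNA-seq libraries of bone marrow-derived macrophages were analysed from 1 table of counts that the authors deposited: whole reads per gene, not normalized, from cutadapt trimming, STAR alignment to mm10 and HTSeq counting, with FastQC and MultiQC for quality and DESeq2 for the study's own tests. Versions, annotation and strand setting are not given in the sources used here. Libraries were grouped by their labels. Mcu-/- zymosan columns are numbered 3 to 5 and their labels 1 to 3, so these were assigned to the group only and are named by column number. The 25 repeated symbols were kept apart.

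Counts were filtered with filterByExpr, scaled by TMM and fitted with edgeR 4.0.16 (quasi-likelihood, R 4.3.3) over all 20 libraries with 1 coefficient per group, and p-values were adjusted over all 11707 genes tested (11666 without Mcu-/- untreated replicate 4). The 6 comparisons share libraries. The genes and lists were chosen with earlier results of these data known, so no p-value is printed for any of the 9 members. Listed genes were named by a rule: for each list and comparison, the 3 called genes that changed most, among those whose higher group averaged 10 CPM or more and whose libraries did not overlap. For each member the 3 genes most alike were named. Any other S100 list gene that passed the filter was named. Alternatives were DESeq2 1.42.0, its size factors, other filters, a fold minimum, groups alone, a replicate block and leaving out each library. Same-numbered libraries did not deviate together (33 pairs, r from −0.0549 to 0.0614). The script was tested on simulated data. Exact binomial intervals (95%) cover counting error only. Sequences are from RefSeq (GRCm38.p6) and gene models from GENCODE M21.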

Additional observations from a re-analysis of the deposited data

Results flagged for a closer look

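In 36 groups of 4 or 5 libraries examined for the 9 genes, 3 held a library set apart by a gap that was large beside the range of its group. For a single group chance gives this in about 1 in 20 cases. The 36 groups share libraries and are not independent, so that rate cannot weigh the 3 found. The rule weighs neither the size of the gap nor counting error, so it also picks small differences such as that of S100a11. S100a6 was at 70.7 CPM in Mcu-/- untreated replicate 4, against 42.4 to 44.4 CPM in replicates 1 to 3. That library lay outside replicates 1 to 3 for 87.1% of all genes tested. S100a4 was at 30.7 CPM in WT zymosan + BAPTA-AM replicate 3, against 32.5 to 32.9 CPM in the other 3. S100a11 was at 33.0 CPM in WT untreated replicate 1, against 32.3 to 32.4 CPM in the other 3.

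The zymosan response differed between genotypes for 6 of the 9 genes by the difference term of the edgeR fit. Such calls were common, with 1779 of the 11707 genes tested called higher and 2343 lower by the same term. The log2 difference (Mcu-/- minus WT) was −3.81 for Calb2, −0.68 for S100a1, 0.63 for S100a6, −2.27 for S100a8, −2.51 for S100a9 and −0.60 for S100a13. The call of S100a13 was lost when any of several single libraries was left out, and with the replicate block. As the genes were chosen with these values known, the list describes them and carries no test.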

How the results depend on the processing

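Of 1440 member log2 fold changes recomputed, 3 moved by more than the spread between replicates and 0 reversed, and of 336 counts of called genes 29 moved by over 1.5 times. Calls of members, in the order Mcu-/- zymosan against WT zymosan, BAPTA-AM, WT zymosan response, untreated genotypes, Mcu-/- zymosan response and difference of responses, were 7, 3, 2, 0, 8 and 6, and of the 72 listed genes 52, 6, 49, 0, 55 and 27. Leaving out each library in turn gave 7 to 7, 3 to 6, 2 to 7, 0 to 1, 7 to 8 and 5 to 7 members and 46 to 59, 5 to 23, 45 to 57, 0 to 6, 50 to 61 and 21 to 50 listed genes. Mcu-/- untreated replicate 4 decided most of this range. Without it BAPTA-AM called 6 members and 23 listed genes, the WT zymosan response 7 members, the untreated genotypes 1 member and 6 listed genes, and the difference of responses 50 listed genes. S100a9 lost its call in the Mcu-/- zymosan response without Mcu-/- untreated replicate 2 and without Mcu-/- zymosan replicate 4. Shares of all genes called are given above only for all 20 libraries and for the fit without Mcu-/- untreated replicate 4. Counts under the other settings, here and below, show only how calls depend on the setting.

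Groups compared alone gave 6 members and 21 listed genes for BAPTA-AM, 7 members for the WT zymosan response and 4 members for the Mcu-/- zymosan response, where S100a1, S100a8, S100a9 and S100a13 were lost. At least 10 counts in every library kept 6 members for testing and gave 4 members between the zymosan groups, 5 in the Mcu-/- zymosan response and 3 in the difference of responses. A minimum absolute log2 fold change of 1 gave 3, 0, 0, 0, 4 and 3 members and 10, 1, 13, 0, 20 and 5 listed genes in the same order. DESeq2 called 7, 3, 3, 0, 8 and 6 members, S100a1 gained in the WT zymosan response. The share of all genes called under each of these settings is not given here.

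Same-numbered libraries did not deviate together (median r = 0.00352 over 33 pairs, 0 over 0.1), which gave no sign that the numbers pair the samples. It cannot exclude a pairing, also because the Mcu-/- zymosan columns are numbered otherwise than their labels. With the replicate block 7, 3, 2, 0, 8 and 5 members and 47, 5, 49, 0, 48 and 22 listed genes were called, S100a13 lost in the difference of responses. With the replicate block and without replicate 4, a setting chosen after seeing the data, BAPTA-AM gave 5 members and 23 listed genes, the WT zymosan response 7 members, the untreated genotypes 1 member and 6 listed genes, and the difference of responses 50 listed genes. For both fits with the block the shares of all genes called are not given either. S100a8 and S100a9 rested on 1 to 5 reads per library in Mcu-/- zymosan and in replicate 4, which limits the precision of their fold changes.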
